A study of Mus musculus with 22 samples.

Results

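Loose connective tissue from under the skin of the trunk was removed from male C57BL/6 mice and held either stretched or shortened outside the body. The 8 samples described here are those titled as ex vivo, 4 shortened and 4 stretched, out of 22 samples in the study. A stretched and a shortened piece with the same number were taken as 1 animal, since the study's design compares the pieces within an animal and assigned them at random. The mice weighed 19 to 24 g, and the labels name no transgene, drug or other treatment for any group. The remaining 14 samples were the same tissue of 7 animals held stretched or shortened in vivo, and they enter only where the stretch effect was compared between settings. The force, the duration of the stretch and the way the explants were kept are not given in the sources used here.

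Loose connective tissue is a sheet of fibroblasts in a collagen and hyaluronan matrix, crossed by vessels and nerves and populated by resident macrophages, mast cells and some fat cells. Once tissue is cut from its blood supply, oxygen reaches its cells by diffusion alone. Cells short of oxygen stabilise the transcription factor HIF, which induces genes of glucose uptake, glycolysis, vessel growth and collagen hydroxylation. Secretory cells such as fibroblasts also depend on chaperones of the endoplasmic reticulum (ER), which are induced when unfolded proteins build up there.

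The arrays gave a log2 signal for 22626 probes, which stood for 12384 genes. The median signal of an ex vivo sample lay between 6.85 and 6.90. Correlations between samples were 0.991 to 0.995 within the shortened group and 0.977 to 0.991 within the stretched group, and no 2 samples were identical. Of 23 measured fibroblast markers, 18 lay above the sample's median signal in all 8 samples, as did 31 of 35 collagen and matrix genes and 18 of 22 macrophage markers. Of 19 keratinocyte markers, 17 lay at or below it in all 8 samples and none lay above it in all 8. The files hold no detection calls, so a low signal is not shown to be absent. Precision is limited by how many arrays there are.

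Libraries in the stretched group stood apart in 2 ways. Stretched sample 1 had a difference between the 3' and 5' control probes of Gapdh, a measure of how far RNA is degraded, of 0.912, against 0.0560 to 0.187 in the other stretched samples and 0.0497 to 0.171 in the shortened samples. The same measure on Actb was 1.32 in stretched sample 1 and 0.495 to 0.601 in the other stretched samples, against 0.738 to 0.976 in the shortened samples. Stretched samples 2 to 4 thus lay below every shortened sample on Actb, and stretched sample 1 above them all. Stretched samples 3 and 4 had high skeletal muscle signal. The mean of the sarcomere and the muscle calcium and energy genes was 5.44, 5.57, 5.48 and 5.82 in shortened samples 1 to 4 and 5.38, 5.46, 8.14 and 9.28 in stretched samples 1 to 4. Over the 4 pairs the Gapdh measure differed by 0.195 ± 0.392 (SD, n = 4), with p = 0.5 in an exact two-sided sign-flip test. The Actb measure differed by -0.0751 ± 0.428 (SD, n = 4, exact p = 0.75). The muscle mean differed by 1.49 ± 1.84 (SD, n = 4, exact p = 0.5). With 4 pairs that test cannot go below 0.125.

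**Figure D1:**
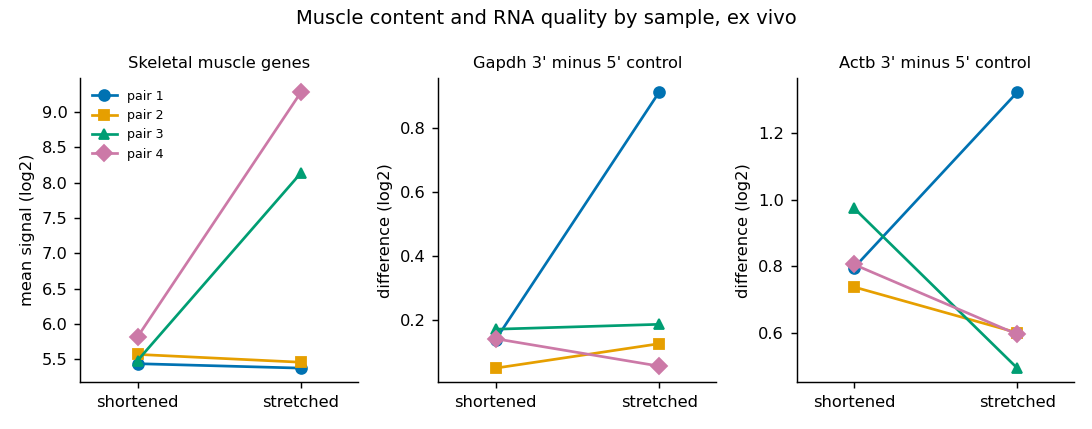
Mean log2 signal of skeletal muscle genes and the 3' minus 5' difference of the Gapdh and Actb control probes in each ex vivo sample, with lines joining the 2 pieces of an animal. Stretched samples 3 and 4 reached 8.14 and 9.28 in muscle signal, and stretched sample 1 reached 0.912 in the Gapdh measure.

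The 4 animals did not differ alike. The differences between stretched and shortened tissue correlated across genes with r = 0.62 between pairs 3 and 4 and r = 0.38 between pairs 2 and 3. Pair 1 correlated with pairs 2, 3 and 4 with r = 0.00, 0.03 and -0.01, and pair 2 with pair 4 with r = -0.01. These values are descriptions, since genes share their library and are not independent replicates. Without the 3 skeletal muscle lists, r was 0.47 between pairs 3 and 4 and 0.45 between pairs 2 and 3. The SD of the pair differences over genes was 0.279, 0.345, 0.434 and 0.455 in pairs 1 to 4. The part of RNA quality and muscle content in this disagreement was not tested.

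No single gene passed the test of stretched against shortened tissue ex vivo. In limma with the animal as a block, 0 of 22626 probes had an adjusted p under 0.05, and the smallest adjusted p was 0.352. At an unadjusted p under 0.05 there were 2508 probes (11.1%), 1184 higher (5.23%) and 1324 lower (5.85%) in stretched tissue. That number was 958 without pair 3 and 1177 without pairs 3 and 4, while it was 3484 without pair 1. When the spread was estimated from all 22 samples, with the same ex vivo differences, 661 probes passed (2.92%), and by 1 probe per gene 142 genes were higher (1.15%) and 256 lower (2.07%) in stretched tissue. The ex vivo fit was the main test, and the wider fit is an alternative to it. Below, a gene that passed is one that passed in that wider fit only. The wider fit assumes that ex vivo samples vary like the in vivo ones, which was not tested. All other differences are given as values. They are stretched minus shortened on the log2 scale, with the SE of the ex vivo fit and n = 4 pairs. Over all 12384 genes the median difference was 0.01, with 52.4% higher and 47.6% lower.

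**Figure D2:**
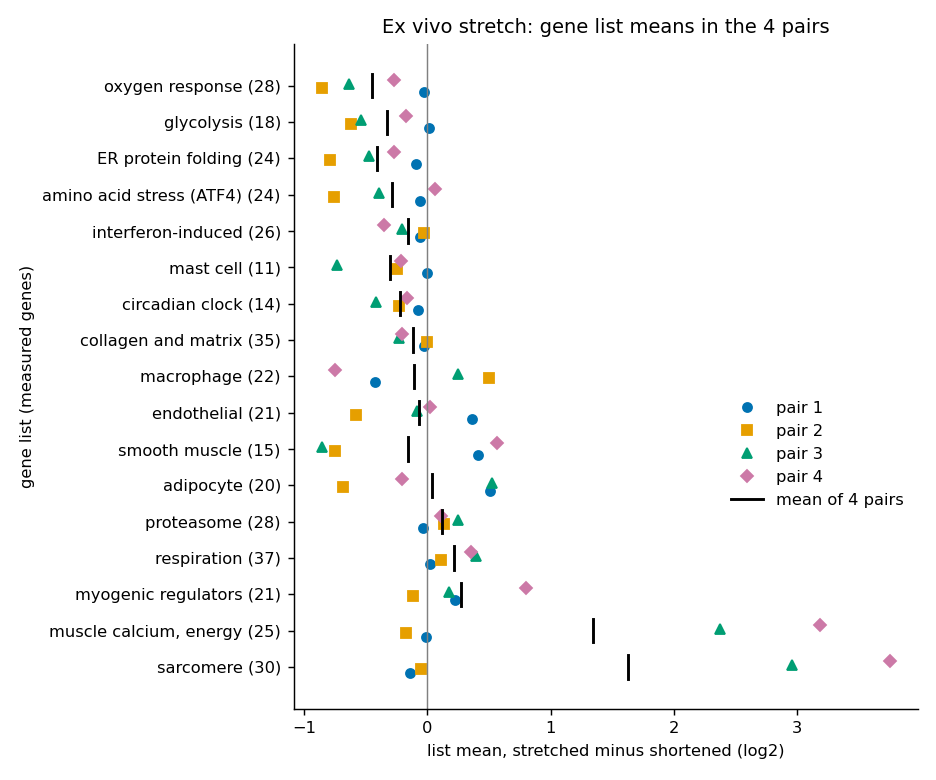
Mean difference between stretched and shortened tissue (log2) of 17 gene lists in each of the 4 ex vivo pairs, with the mean of the pairs as a bar and the number of measured genes in brackets. The oxygen response mean was -0.02 in pair 1 and -0.85 in pair 2, and the sarcomere mean was -0.14 in pair 1 and 3.75 in pair 4.

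Genes of the oxygen response were lower in stretched tissue. Of 28 measured members 25 had a negative difference, 18 were lower in 4 of 4 pairs (8.89% of all genes) and 20 were lower at an unadjusted p under 0.05 (5.85% of all genes). In 15 of the 28, every stretched sample lay below every shortened sample, as in 3.25% of all genes. In the fit over all 22 samples 15 of the 28 fell (2.07% of all genes). Their median difference was -0.51. The list mean differed by -0.02, -0.85, -0.63 and -0.27 in pairs 1 to 4, so pair 1 was near 0. By pair, 22, 28, 25 and 21 of the 28 were lower, against 36.8, 44.5, 52.8 and 58.2% of all genes. Without pair 1 the median was -0.67, with 21 of 28 lower in all 3 remaining pairs (21.3% of all genes). Without pairs 3 and 4 it was -0.46, with 22 of 28 lower in both remaining pairs (17.7% of all genes). With muscle content as a covariate it was -0.49. The list includes genes that an earlier look at these data had shown to be low, so its direction is not independent evidence.

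Promoters are shown because the members differed together and HIF binds a short core, ACGTG on either strand. They were taken in order of p from each list, and genes without the core upstream of the start were passed over, Pdk1 among them. Every window shown thus holds the core by choice. Windows of 100 bases upstream of the start are from RefSeq on GRCm38.p6, 5' to 3' on the gene's strand, with the core in capitals, for Fam162a at chr16:36071591-36071690 (minus strand), Ero1a at chr14:45318584-45318683 (minus strand), P4ha1 at chr10:59323196-59323295 (plus strand) and the glycolytic gene Pgam1 at chr19:41911709-41911808 (plus strand).
Fam162a: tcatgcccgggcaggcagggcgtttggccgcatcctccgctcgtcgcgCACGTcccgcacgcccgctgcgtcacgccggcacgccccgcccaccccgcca
Ero1a: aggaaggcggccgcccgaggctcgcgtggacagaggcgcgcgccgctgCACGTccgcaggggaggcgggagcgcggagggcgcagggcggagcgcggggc
P4ha1: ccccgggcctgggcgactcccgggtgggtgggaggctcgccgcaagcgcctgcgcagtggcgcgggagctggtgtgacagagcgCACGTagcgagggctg
Pgam1: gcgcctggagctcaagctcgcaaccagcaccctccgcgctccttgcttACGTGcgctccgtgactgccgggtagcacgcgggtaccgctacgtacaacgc
The core stood in the 300 bases around the start in 18 of 24 oxygen response genes with a promoter in the table (75%), in 12 of 17 glycolysis genes (70.6%) and in 26.9% of 9893 measured genes. It lies within the E-box CACGTG and can lie within the cAMP response element TGACGTG, and a match is a description of sequence, not a site. Both lists were drawn up from known genes of these responses. A high share of the core can follow from that choice and is not a result of these data.

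Hilpda, which encodes a lipid droplet protein that restrains fat breakdown when oxygen is short, had the smallest p of this list. Its signal was 10.80, 11.12, 11.43 and 10.91 in shortened samples 1 to 4 and 10.08, 10.07, 10.22 and 10.31 in stretched samples 1 to 4. All stretched samples lay below all shortened samples, pair 1 included. The difference was -0.89 ± 0.12, and Hilpda fell in the fit over all 22 samples (limma adjusted p = 0.00515).

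Ero1a, the oxidase that renews disulfide bond formation in the ER, had signals of 12.15, 12.82, 12.83 and 12.37 in shortened samples 1 to 4 and 11.76, 10.88, 11.41 and 11.44 in stretched samples 1 to 4. The groups did not overlap, and pair 1 differed least. The difference was -1.17 ± 0.23 and passed over all 22 samples (limma adjusted p = 0.00679). Its other probes gave -1.03 ± 0.22 and -1.51 ± 0.20.

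The mitochondrial protein gene Fam162a differed by -0.54 ± 0.10, with -0.19, -0.69, -0.75 and -0.53 in pairs 1 to 4. Pdk1, a kinase that inhibits pyruvate dehydrogenase, differed by -0.66 ± 0.13. The angiogenic growth factor Vegfa differed by -0.72 ± 0.15, from 10.10, 10.67, 10.93 and 10.49 in shortened samples to 9.65, 9.57, 9.91 and 10.19 in stretched samples. Its groups overlapped, since stretched sample 4 lay above shortened sample 1. Fam162a, Pdk1 and Vegfa each fell in the fit over all 22 samples.

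The list also holds 4 collagen hydroxylase genes, of which P4ha1, P4ha2 and Plod2 fell over all 22 samples and Plod1 did not (limma adjusted p = 0.492). P4ha1, a catalytic subunit of the prolyl hydroxylase that stabilises the collagen helix, differed by -0.37 ± 0.08 and its pairs by -0.23, -0.26, -0.51 and -0.49. P4ha2, its sister subunit, differed by -0.75 ± 0.18, with -0.03 in pair 1. Plod2, which prepares collagen for crosslinking, differed by 0.35 in pair 1 and by -1.62, -1.54 and -0.99 in pairs 2 to 4. Plod1, a related hydroxylase, differed by 0.25 in pair 1 and by -0.20, -0.21 and -0.32 in pairs 2 to 4. Egln3, an oxygen-sensing hydroxylase that marks HIF for breakdown, differed by -0.85 ± 0.25.

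The members that varied most between animals were Ddit4, Ppp1r3c and Plod2. Ddit4, a stress-induced brake on mTOR signalling, differed by 1.62, -1.67, -0.92 and 0.27 in pairs 1 to 4. Ppp1r3c, which directs a phosphatase to glycogen, differed by 1.04, -1.18, 0.59 and 1.18. Angptl4, Cited2 and Ppp1r3c were the 3 members with a positive mean difference, of 0.14 ± 0.12, 0.17 ± 0.16 and 0.41 ± 0.38.

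**Figure D3:**
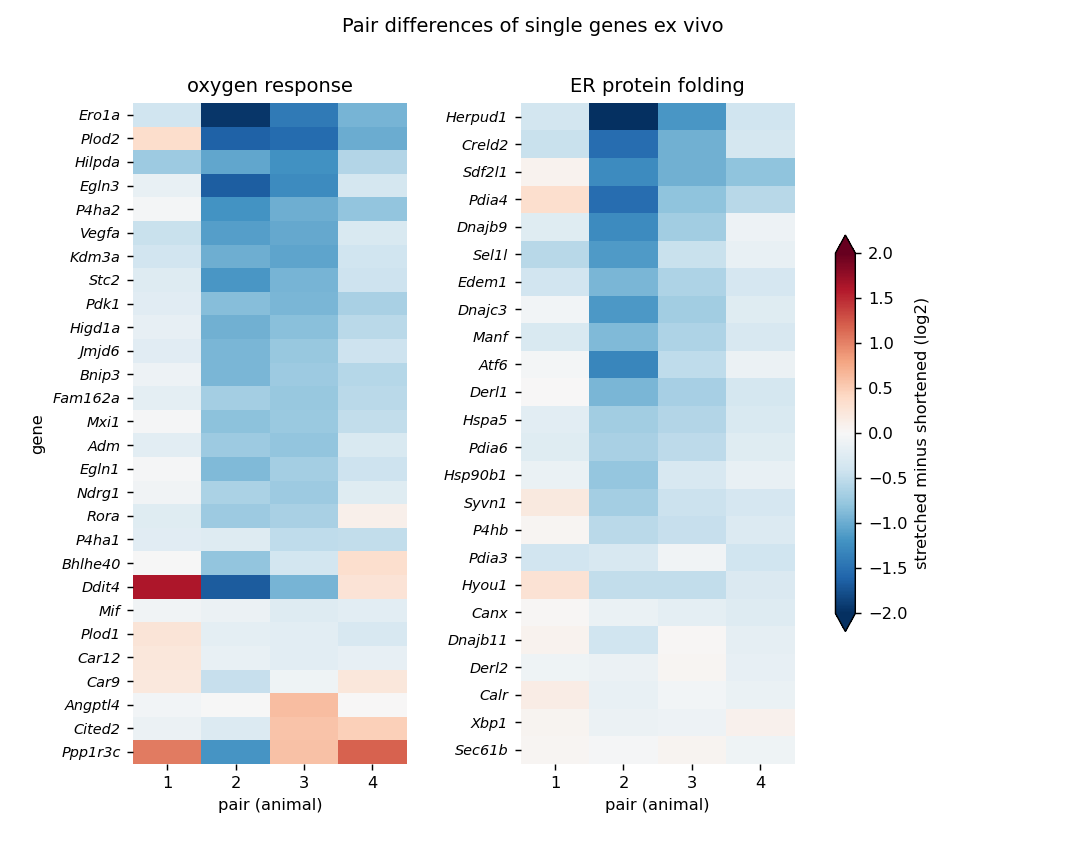
Difference between stretched and shortened tissue (log2, colour) of each measured gene of the oxygen response and ER protein folding lists in the 4 ex vivo pairs, ordered by the mean. Pair 2 was low throughout both lists, while in pair 1 most cells were pale and Ddit4 reached 1.62.

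Genes of glycolysis followed with smaller differences. Of 18 measured members 17 were lower, 10 in 4 of 4 pairs (8.89% of all genes), 11 at an unadjusted p under 0.05 (5.85%) and 3 with groups that did not overlap (3.25%). The median was -0.33, and -0.21 without pair 2, the pair with the lowest list mean (-0.61). Pair 1 had a list mean of 0.01. Over all 22 samples 2 members fell (2.07% of all genes), Pgam1 and Pfkp.

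Pgam1, the mutase of lower glycolysis, had the most even difference. Its signal was 12.17, 12.36, 12.38 and 12.26 in shortened samples 1 to 4 and 11.86, 12.02, 12.10 and 11.91 in stretched samples 1 to 4. The groups did not overlap, and the pairs differed by -0.32, -0.33, -0.28 and -0.35 (-0.32 ± 0.05, adjusted p = 0.0116 in limma over all 22 samples). Pfkp, a subunit of the phosphofructokinase that commits sugar to glycolysis, differed by -0.67 ± 0.17. The glycogen branching enzyme gene Gbe1 differed by -0.58 ± 0.15 and the lactate exporter gene Slc16a3 by -0.33 ± 0.10.

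Respiratory genes ran the other way by a small amount. All 37 measured members were higher on average, 18 in 4 of 4 pairs (12.0% of all genes) and 19 at an unadjusted p under 0.05 (5.90% of all genes), with 12 whose groups did not overlap (3.37% of all genes). The median was 0.20, and the list mean differed by 0.02, 0.11, 0.39 and 0.36 in pairs 1 to 4. The higher pairs were those with muscle signal in the stretched piece. The median was 0.08 without pairs 3 and 4 and 0.10 with muscle content as a covariate, under which 26 of 37 were higher. In pairs 1 and 2 both, 18 of 37 were higher (36.4% of all genes), and without pair 1 30 of 37 were higher in all 3 remaining pairs (18.3% of all genes). The part of muscle content in the remaining difference was not tested.

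Within the list Uqcrc1, a core subunit of complex III, had signals of 9.96, 10.23, 9.69 and 9.93 in shortened and 10.56, 10.33, 10.23 and 10.45 in stretched samples 1 to 4. The lowest stretched sample equalled the highest shortened one to 2 decimals. The difference was 0.44 ± 0.10. Atp5g1, a subunit of the rotor of ATP synthase, differed by 0.55 ± 0.14. Uqcrc1 and Atp5g1 were the 2 members that rose over all 22 samples (limma adjusted p = 0.0365 and 0.0381), as did 1.15% of all genes. Cox5b of cytochrome oxidase differed by 0.26 ± 0.06 and Ndufa4 by 0.35 ± 0.10.

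Chaperones and quality control genes of the ER were lower in stretched tissue. All 24 measured members had a negative mean difference, 12 were lower in 4 of 4 pairs (8.89% of all genes), 14 were lower at an unadjusted p under 0.05 (5.85%), and 8 had groups that did not overlap (3.25%). Over all 22 samples 8 members fell (2.07% of all genes). The median was -0.43. The list mean differed by -0.09, -0.79, -0.47 and -0.27 in pairs 1 to 4. It was 10.81, 11.24, 10.90 and 10.75 in shortened samples and 10.72, 10.45, 10.43 and 10.49 in stretched samples, so the groups did not overlap. The median was -0.50 without pair 1, -0.45 without pairs 3 and 4 and -0.46 with the muscle covariate.

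Many ER chaperone genes carry the ER stress response element, CCAAT and CCACG 9 bases apart (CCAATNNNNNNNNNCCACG). It is shown for 3 of the genes described here, from RefSeq on GRCm38.p6, 5' to 3' on the gene's strand, with the element in capitals, for Hspa5 at chr2:34771984-34772083, Pdia6 at chr12:17266450-17266549 and Creld2 at chr15:88819479-88819578, all on the plus strand. In Creld2 it reads on the opposite strand.
Hspa5: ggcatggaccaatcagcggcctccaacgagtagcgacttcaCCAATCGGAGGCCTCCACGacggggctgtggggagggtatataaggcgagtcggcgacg
Pdia6: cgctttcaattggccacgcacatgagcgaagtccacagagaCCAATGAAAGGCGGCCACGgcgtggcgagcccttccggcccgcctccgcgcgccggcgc
Creld2: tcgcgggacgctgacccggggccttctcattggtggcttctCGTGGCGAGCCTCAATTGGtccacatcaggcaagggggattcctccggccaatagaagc
The element stood in 8 of 20 ER genes with a promoter in the table (40%) and in 18 of 9893 measured genes (0.182%), on either strand, in none of the 24 oxygen response genes and none of the 17 glycolysis genes. These exact letters were searched after the values of the list were known. The list was drawn up from known ER stress genes, so its share can follow from that choice and is not a result of these data. The ACGTG core, which the element can overlap at its CCACG end, stood in 7 of the 20 ER genes (35%).

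Hspa5, the main chaperone of the ER lumen, had signals of 13.51, 13.79, 13.60 and 13.51 in shortened samples 1 to 4 and 13.31, 13.10, 13.02 and 13.21 in stretched samples 1 to 4. No stretched sample reached a shortened one. The difference was -0.44 ± 0.09 and passed over all 22 samples (limma adjusted p = 0.00755). Its other probe gave -0.62 ± 0.12.

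Manf, a secreted ER protein that binds this chaperone, differed by -0.53 ± 0.11, and Edem1, which sends misfolded glycoproteins to breakdown, by -0.56 ± 0.11. Pdia6, a disulfide isomerase, differed by -0.41 ± 0.09 and Creld2, another disulfide isomerase, by -0.82 ± 0.19. On these probes each was lower in 4 of 4 pairs and fell over all 22 samples. Further probes gave -0.22 ± 0.10 for Edem1 and -0.36 ± 0.16 for Pdia6, each higher in 1 pair. Creld2 differed by -0.44 in pair 1 and -1.52 in pair 2, the widest spread of these 4 genes. Herpud1, which helps draw proteins out of the ER, differed by -0.37, -2.03, -1.16 and -0.41.

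The related genes of amino acid shortage, which the factor ATF4 induces, were lower in 21 of 24 members, 6 of them in 4 of 4 pairs (8.89% of all genes) and 9 at an unadjusted p under 0.05 (5.85%). The median was -0.24, but -0.09 without pair 2 and -0.38 without pair 4, whose list means were -0.76 and 0.07. Over all 22 samples 4 members fell (2.07% of all genes). They were Vldlr, a lipoprotein receptor (-0.66 ± 0.18), the amino acid transporter subunit Slc3a2 (-0.37 ± 0.11), the pseudokinase Trib3 (-0.81 ± 0.25) and Ddit3 (-0.72 ± 0.23), a factor of prolonged ER stress. Trib3 and Ddit3 differed by -1.67 and -1.53 in pair 2 and by -0.04 and -0.20 in pair 1.

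**Figure D4:**
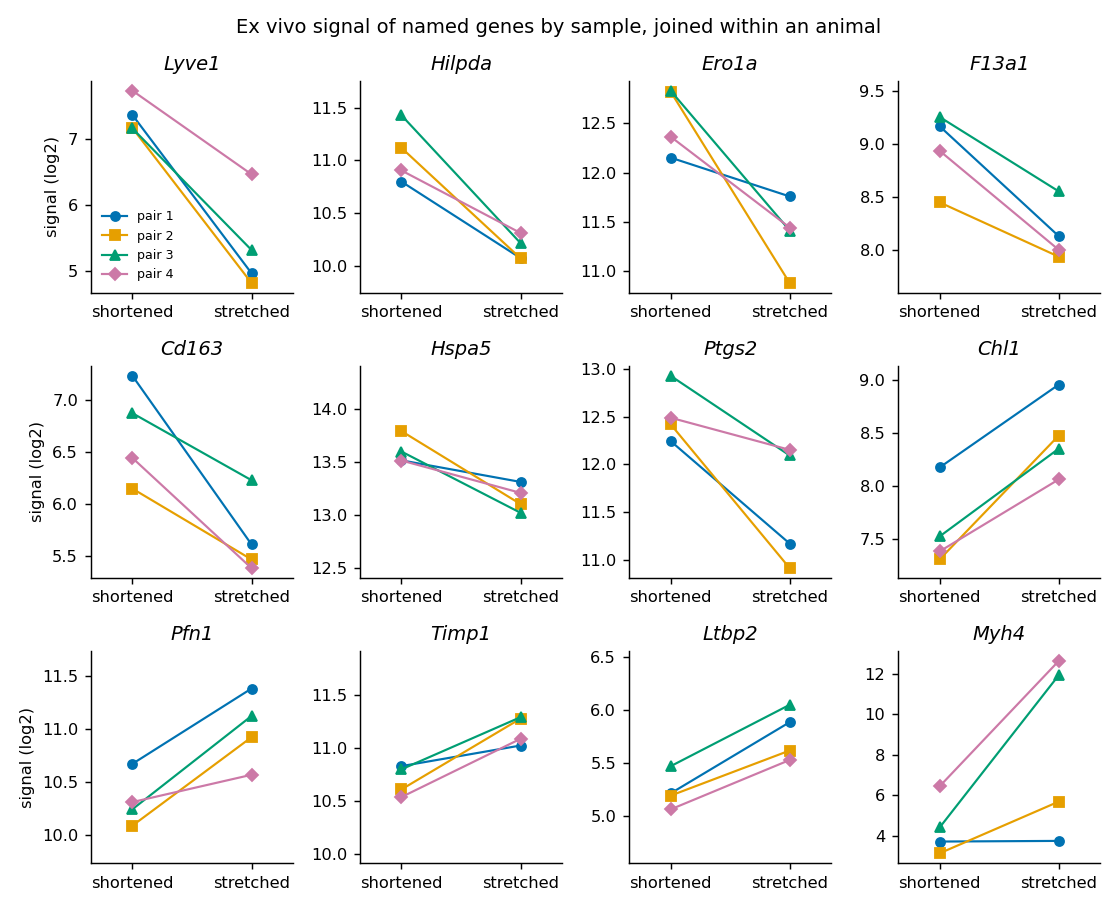
Log2 signal of 12 genes in the 8 ex vivo samples, with lines joining the 2 pieces of an animal; each panel has its own axis. Lyve1, Hilpda, Ero1a and Hspa5 lay lower and Chl1 higher in stretched tissue of every pair, and Myh4 reached 11.93 and 12.64 in stretched samples 3 and 4.

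The gene with the smallest p of all was Lyve1, a hyaluronan receptor of lymphatic endothelium and of a class of resident macrophages. Its signal was 7.37, 7.17, 7.17 and 7.74 in shortened samples 1 to 4 and 4.96, 4.81, 5.32 and 6.47 in stretched samples 1 to 4. The groups did not overlap, and the smallest pair difference was -1.27 in animal 4. The difference was -1.97 ± 0.20, and Lyve1 fell over all 22 samples (limma adjusted p = 0.000162). A further probe of the gene gave -1.25 ± 0.12.

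F13a1, Cd163 and Csf1r, which resident macrophages express, were lower with it and were named for their small p. Cd163 and Csf1r were the only 2 of 22 measured macrophage markers lower in 4 of 4 pairs (8.89% of all genes). F13a1, the A subunit of coagulation factor XIII, had signals of 9.17, 8.45, 9.25 and 8.93 in shortened and 8.13, 7.93, 8.55 and 7.998 in stretched samples 1 to 4. The groups overlapped, because animal 2 was low in both pieces, but each pair was lower, and the difference was -0.80 ± 0.11 (adjusted p = 0.000796 in limma over all 22 samples). Cd163, a scavenger receptor for haemoglobin, differed by -1.62, -0.68, -0.64 and -1.06 in pairs 1 to 4. Csf1r, the receptor for the macrophage growth factor, differed by -0.58, -0.57, -0.36 and -1.01 (-0.63 ± 0.12). F13a1, Cd163 and Csf1r fell over all 22 samples.

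The macrophage list as a whole did not share that direction. Of its 22 measured markers 14 were lower and 8 higher, with a median of -0.07. In 4 of 4 pairs 2 were lower and 1 higher (8.89% and 12.0% of all genes). Its mean differed by -0.42, 0.50, 0.25 and -0.75 in pairs 1 to 4. The list mean ranged from 9.11 to 9.95 in shortened and from 8.70 to 9.96 in stretched samples. Cd14, a co-receptor for bacterial lipid, differed by 0.27 ± 0.08 and was higher in 4 of 4 pairs, and Adgre1, a classic surface marker of mouse macrophages, differed by -0.06, 0.64, 1.09 and -0.75.

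Endothelial markers, a list that holds Lyve1, showed no common direction either, with 11 higher and 10 lower of 21 and pair means of 0.36, -0.58, -0.08 and 0.02. Among genes also found in lymphatic endothelium, Flt4 differed by -0.26 ± 0.27, Prox1 by 0.03 ± 0.07 and Pdpn, which fibroblasts also make, by 0.24 ± 0.10. Because every piece was mixed tissue, fewer cells of a type and less RNA per cell cannot be told apart. The part of macrophage or vessel content in the Lyve1 difference was not tested.

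Sox18, a transcription factor of vessel endothelium, was higher in stretched tissue, with 8.31, 8.24, 7.26 and 7.75 in shortened and 8.74, 8.61, 7.99 and 8.44 in stretched samples 1 to 4. The groups overlapped, and the difference was 0.56 ± 0.10. It did not pass over all 22 samples (limma adjusted p = 0.184).

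Of the cytokine and chemokine list, Ptgs2, the inducible cyclooxygenase, had signals of 12.24, 12.42, 12.93 and 12.49 in shortened samples 1 to 4 and 11.17, 10.91, 12.09 and 12.15 in stretched samples 1 to 4. The groups did not overlap, and the difference was -0.94 ± 0.17, with -1.67 ± 0.25 on its other probe. Ptges, the synthase that follows it on the way to prostaglandin E2, differed by -0.51 ± 0.11. By the brightest probe of each, Ptges fell over all 22 samples (limma adjusted p = 0.0287), and Ptgs2 did not (limma adjusted p = 0.137).

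The 35 measured cytokine and chemokine genes went both ways, with 16 higher and 19 lower and a median of -0.04. The interferon-induced chemokine Cxcl10 differed by -0.30, -0.25, -0.39 and -0.38 in pairs 1 to 4. Cxcl14, a chemokine of resting connective tissue and skin, had signals of 8.003, 7.75, 8.31 and 8.25 in shortened and 8.90, 8.64, 8.62 and 8.80 in stretched samples 1 to 4. Its groups did not overlap, and it differed by 0.66 ± 0.13, against 0.49 ± 0.12 on a further probe.

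Interferon-induced genes were lower in 23 of 26 members, 10 of them in 4 of 4 pairs (8.89% of all genes) and 8 at an unadjusted p under 0.05 (5.85%). The median was -0.11, but -0.04 without pair 4, whose list mean was -0.35, -0.02 without pairs 3 and 4 and -0.01 with the muscle covariate. Isg20, an exonuclease against viral RNA, differed by -0.44 ± 0.08, Mx2, an antiviral GTPase, by -0.56 ± 0.12 and Igtp, a GTPase of cell-intrinsic defence, by -0.45 ± 0.12. These 3 were the members that fell over all 22 samples (2.07% of all genes).

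Matrix genes had a small median difference as a list. Of 35 collagen and matrix genes 28 were lower, with 4 lower and 4 higher in 4 of 4 pairs (8.89% and 12.0% of all genes). At an unadjusted p under 0.05, 8 were lower and 4 higher (5.85% and 5.90% of all genes). The median was -0.14. It was -0.05 without pairs 3 and 4, with 20 of 35 lower, and -0.05 with the muscle covariate, with 21 lower. Postn, a matricellular protein of loaded tissue, differed by -0.14, -0.70, -0.97 and -0.82 in pairs 1 to 4 (-0.66 ± 0.15). Loxl1, a crosslinking oxidase of elastic fibres, was higher, by 0.71 ± 0.20, and the collagen chaperone gene Serpinh1 by 0.30 ± 0.08. Col6a2, a chain of beaded-filament collagen VI, differed by -0.42 ± 0.12, and by -0.34 ± 0.13 on a further probe that was higher in 1 pair. Over all 22 samples Loxl1 rose (1.15% of all genes) and Postn and Col6a2 fell (2.07% of all genes). Col1a1, a chain of the main fibrillar collagen, differed by -0.28, 0.07, -0.49 and -0.65, with groups that overlapped.

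Of 26 protease, inhibitor and hyaluronan genes 13 were higher and 13 lower. Timp1, an inhibitor of matrix metalloproteinases, had signals of 10.83, 10.61, 10.80 and 10.54 in shortened and 11.02, 11.28, 11.29 and 11.09 in stretched samples 1 to 4. The groups did not overlap, and Timp1 differed by 0.48 ± 0.09 and rose over all 22 samples (limma adjusted p = 0.0448). The hyaluronan synthase genes Has1 and Has2 differed by -0.91 ± 0.33 and -0.65 ± 0.21, lower in pairs 1 to 3 and higher in pair 4 (0.41 and 0.12). Mmp10, a stromelysin, differed by -0.57 ± 0.20.

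Gnpnat1, an enzyme on the way to the sugar nucleotide from which hyaluronan and glycan chains are built, was among the 10 genes with the smallest p in the lower direction. It differed by -1.08, -0.75, -0.87 and -0.45 in pairs 1 to 4 (-0.79 ± 0.11), and its other probes gave -0.64 ± 0.10 and -0.57 ± 0.11. The others of these 10, beside Lyve1, Hilpda and F13a1, were Tmcc3 (-0.68 ± 0.10), the zinc finger gene Zfp292 (-0.61 ± 0.09), Peak1, a pseudokinase of focal adhesions (-0.82 ± 0.13), the dynein light chain gene Dynlt1f (-0.59 ± 0.10), Pdzph1 (-0.77 ± 0.13) and the choline dehydrogenase gene Chdh (-0.68 ± 0.11). Dynlt1f has near-identical copies, so its signal is not certain to be of that copy. Of these 10 genes Chdh alone did not pass over all 22 samples (limma adjusted p = 0.285).

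Among genes higher in stretched tissue Chl1, a cell adhesion molecule of the L1 family, had the smallest p. Its signal was 8.18, 7.31, 7.52 and 7.38 in shortened and 8.96, 8.48, 8.35 and 8.06 in stretched samples 1 to 4. Animal 1 was high in both pieces, so the groups overlapped, but the pairs differed by 0.78, 1.17, 0.83 and 0.68. The difference was 0.87 ± 0.11, and Chl1 rose over all 22 samples (limma adjusted p = 0.00803).

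Pfn1, which encodes the actin monomer binder profilin, had signals of 10.67, 10.08, 10.24 and 10.31 in shortened and 11.38, 10.92, 11.12 and 10.56 in stretched samples 1 to 4. The groups overlapped at stretched sample 4, and the difference was 0.67 ± 0.12. Ltbp2, a microfibril protein related to the carriers of latent TGF-beta, had signals of 5.21, 5.19, 5.47 and 5.06 in shortened and 5.89, 5.62, 6.05 and 5.53 in stretched samples 1 to 4. Its groups did not overlap, and it differed by 0.54 ± 0.10. Pfn1 and Ltbp2 rose over all 22 samples (limma adjusted p = 0.00797 and 0.0188).

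The membrane glycoprotein gene Tpbg was higher on all 3 of its probes, by 0.69 ± 0.13, 0.79 ± 0.14 and 0.47 ± 0.12. The paraspeckle gene Pspc1 differed by 0.62 ± 0.10 on one probe and by 0.15 ± 0.09 on a dimmer one. Ak1, an adenylate kinase that muscle also makes in quantity, differed by 0.42, 0.91, 1.00 and 1.09 in pairs 1 to 4, and by 0.04 ± 0.09 on a dimmer probe. Bckdk, a kinase that slows branched-chain amino acid breakdown, differed by 0.44 ± 0.09. By the brightest probe of each, Bckdk and Pspc1 rose over all 22 samples, and Ak1 and Tpbg did not. The Tpbg probe at 0.79 did pass the test between settings described below (0.96 ± 0.16, limma adjusted p = 0.0464).

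Genes tied to mechanical load gave a mixed picture. Of 21 targets of the actin-sensing factors SRF and MRTF, 16 were higher, 8 of them in 4 of 4 pairs (12.0% of all genes). The median was 0.12, but 0.07 without pair 3 and 0.02 without pairs 3 and 4. Cnn2, a calponin, differed by 0.30 ± 0.10, Actb by 0.18 ± 0.06, the actin disassembly gene Wdr1 by 0.22 ± 0.08 and Vasp, which extends actin filaments, by 0.23 ± 0.09. Other probes gave 0.05 ± 0.12 and -0.21 ± 0.27 for Wdr1 and 0.04 ± 0.26 for Actb, each higher in 2 pairs and lower in 2. Of 20 YAP target and CCN genes 7 were higher and 13 lower. Ccn1, a matricellular protein, differed by -0.63, -1.15, -0.85 and 0.02 in pairs 1 to 4, and F3, the tissue factor that starts clotting, by -0.51 ± 0.17. Ankrd1, which muscle also expresses, differed by 4.95 in pair 4 and by 0.52, 0.25 and 1.84 in pairs 1 to 3.

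TGF-beta pathway genes were split, 11 higher and 14 lower of 25. Smad7, the pathway's inhibitor, differed by -0.41 ± 0.10 and fell over all 22 samples (limma adjusted p = 0.0368). Tgfb1 itself differed by 0.13, 0.06, 0.47 and 0.02 in pairs 1 to 4 (0.17 ± 0.11). Immediate early genes were lower in 20 of 26 members, 3 of them in 4 of 4 pairs (8.89% of all genes). Their list mean differed by -0.02, -0.37, -0.34 and 0.25. Ier3 differed by -0.33 ± 0.10, Myc by -0.37 ± 0.15 and Klf2, a factor of flow-exposed endothelium, by 0.29 ± 0.10.

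Fibroblast markers went both ways, with 10 higher and 13 lower of 23. Cd34, a marker of resident fibroblasts and vessels, differed by 0.09, 0.70, 0.77 and 0.46 in pairs 1 to 4 and rose over all 22 samples, as did Col8a1 (0.66 ± 0.19). Fap, a surface protease of activated fibroblasts, fell in that fit, with a difference of -0.57 ± 0.17. Smooth muscle genes, which myofibroblasts also use, differed by 0.41, -0.75, -0.85 and 0.56 as a list mean. Acta2 ran with them, at 1.30, -1.56, -1.74 and 0.65, and Tagln at 0.43, -2.13, -1.97 and 0.81. No member of that list was higher or lower in 4 of 4 pairs.

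Proteasome subunits were higher in 20 of 28 members, 12 of them in 4 of 4 pairs (12.0% of all genes), with a median of 0.15 that was 0.09 without pairs 3 and 4. Psmb2 and Psmb5 of the core differed by 0.32 ± 0.09 and 0.26 ± 0.08, and Psmc2 and Psmd2 of the cap by 0.22 ± 0.07 and 0.22 ± 0.06, where a further Psmc2 probe gave 0.16 ± 0.09. Over all 22 samples 4 members rose (1.15% of all genes). Of 29 cell cycle genes 14 were higher and 15 lower, with 6 higher and 4 lower in 4 of 4 pairs (12.0% and 8.89% of all genes). Only Mcm2, Mcm5 and Mcm6 passed over all 22 samples, and these 3 rose (1.15% of all genes). They belong to the helicase that licenses DNA replication and were higher in 4 of 4 pairs. Mcm3, Mcm4 and Mcm7 of that helicase are also in the list and did not pass. Mcm5 differed by 0.59 ± 0.15, Mcm6 by 0.43 ± 0.13 and Mcm2 by 0.35 ± 0.10.

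Circadian clock genes were lower in 13 of 14 members, 3 of them in 4 of 4 pairs (8.89% of all genes). The median was -0.20, and -0.12 without pair 3. The list mean was 7.59, 7.62, 7.85 and 7.63 in shortened and 7.51, 7.39, 7.43 and 7.47 in stretched samples 1 to 4, with no overlap. The repressor gene Nr1d2 had the most even differences, of -0.34, -0.32, -0.38 and -0.25, and fell over all 22 samples (limma adjusted p = 0.0161). A further Nr1d2 probe gave -0.60 ± 0.41, higher in 1 pair. Its partner Nr1d1 differed by -0.40 ± 0.11.

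Mast cell markers were lower in 10 of 11 members, 3 of them in 4 of 4 pairs (8.89% of all genes). At an unadjusted p under 0.05, 4 were lower (5.85% of all genes). The median was -0.25, and -0.10 without pair 3. In pair 1 the list mean differed by -0.003, with 5 lower and 6 higher. The carboxypeptidase gene Cpa3 had signals of 7.12, 7.77, 8.81 and 7.51 in shortened and 6.76, 7.01, 6.61 and 6.82 in stretched samples 1 to 4. Its groups did not overlap, and shortened sample 3 was the highest. The proteases Cma1 and Mcpt4 differed by -0.64 ± 0.23 and -0.46 ± 0.15, and Hdc, which makes histamine, by -0.30 ± 0.11. Cpa3 fell over all 22 samples, as did 2.07% of all genes, and no other member of the list passed.

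Skeletal muscle genes had the widest differences, and these came from pairs 3 and 4. Of 30 measured sarcomere genes 27 were higher on average, 5 in 4 of 4 pairs (12.0% of all genes), with a median of 1.78. The list mean differed by -0.14, -0.05, 2.96 and 3.75 in pairs 1 to 4. Without pairs 3 and 4 the median was -0.04, with 12 of 30 higher. With the muscle covariate 15 of 30 were higher. That covariate is the mean of the sarcomere and the calcium and energy genes, so it removes their shared difference by construction. No member passed in the ex vivo fit or over all 22 samples. The 25 muscle calcium and energy genes had a median of 1.29, with 24 higher. Their list mean differed by -0.01, -0.17, 2.37 and 3.18, and without pairs 3 and 4 the median was -0.07 with 10 of 25 higher. In pairs 3 and 4, 24 and 28 of the 30 sarcomere genes were higher in the stretched piece. The same held for 22 and 24 of the 25 calcium and energy genes. Whether this reflects muscle fibres in the piece was not tested.

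Myh4, the myosin of the fastest fibres, had signals of 3.73, 3.15, 4.42 and 6.45 in shortened and 3.76, 5.70, 11.93 and 12.64 in stretched samples 1 to 4. Stretched sample 1 lay at the level of the lower shortened samples. The difference was 4.07 ± 1.15, which did not pass (limma adjusted p = 0.0784 over all 22 samples). The giant spring protein titin, Ttn, differed by 0.09, 0.33, 5.60 and 6.27 in pairs 1 to 4.

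Genes of the contractile filaments varied most between animals. The myosin light chain gene Myl1 differed by -0.86, -0.63, 5.50 and 5.39, the calcium sensor Tnnc2 by -1.35, 0.02, 5.83 and 5.55 and Tnnt3, which ties troponin to the filament, by -0.51, 0.00, 5.41 and 6.25. Acta1, the actin of skeletal muscle, differed by -1.26, -0.65, 5.54 and 4.02. In pairs 1 and 2 Acta1 was thus lower in the stretched piece. Myod1, the master regulator of the muscle lineage, was 4.88, 4.77, 4.99 and 5.21 in shortened and 5.09, 4.83, 5.36 and 8.09 in stretched samples 1 to 4, so that sample 4 alone stood apart. Ryr1, the calcium release channel of muscle, differed by -0.46, 1.33, 3.71 and 4.49.

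The remaining lists showed no common direction or small medians. Heat shock chaperones had a median of -0.06 (12 of 19 lower), NRF2 antioxidant genes -0.06 (12 of 17 lower), sterol synthesis genes 0.05 (14 of 18 higher), p53 targets 0.00 (9 of 18 higher), glucocorticoid-induced genes 0.03 (12 of 19 higher) and ribosomal proteins -0.02 (15 of 20 lower). Without pairs 3 and 4 the heat shock median was -0.19, the NRF2 median -0.22, the sterol median -0.11 and the glucocorticoid median -0.17. In the NRF2 list the haem-degrading enzyme gene Hmox1 differed by -0.41 ± 0.12, and in the p53 list Phlda3 differed by 0.43 ± 0.09.

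Among the remaining cell types, myogenic regulators had a median of 0.09 (16 of 21 higher), pericyte markers -0.05 (5 of 9 lower), Schwann cell markers -0.02 (7 of 14 lower), neutrophil markers 0.03 (10 of 14 higher), lymphocyte markers -0.04 (11 of 15 lower), erythroid genes -0.02 (5 of 7 lower), keratinocyte genes -0.08 (14 of 19 lower) and adipocyte genes 0.08 (14 of 20 higher). Adipocyte list means varied between pieces, at 8.22, 9.47, 7.80 and 8.82 in shortened and 8.73, 8.79, 8.32 and 8.61 in stretched samples 1 to 4. Gzmb, a granzyme of cytotoxic cells, differed by -0.05, -0.63, -1.24 and -1.27 in pairs 1 to 4 and fell over all 22 samples (limma adjusted p = 0.0462).

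The stretch effect ex vivo was then tested against that in vivo. The settings share no samples, and differences were taken within animals. The median signal was 7.28 to 7.41 in the in vivo samples, above the 6.85 to 6.90 of the ex vivo samples. The Gapdh 3' minus 5' difference was 0.111 to 0.272 in both pieces of in vivo animals 1 to 3 and 0.866 to 3.61 in those of animals 4 to 7. The muscle mean also varied within in vivo pairs, for example 6.23 in the shortened and 10.17 in the stretched piece of animal 5. The part of normalization, RNA quality and muscle content in the difference between settings was not tested beyond the alternatives named here. In limma over all 22 samples 40 probes (0.177%) had a stretch effect that differed between settings at an adjusted p under 0.05, of which 29 were lower and 11 higher ex vivo. By 1 probe per gene there were 17 lower (0.137%) and 7 higher (0.0565%). The count rested on single animals. It was 663 without ex vivo pair 1, 331 without pair 4, 3 without pair 2 and 0 without pair 3, when 2334 probes still had an unadjusted p under 0.05 against 3460 with all pairs. It was 4 without the mean-variance trend, 5 after quantile normalization of all samples and 3 without the animal block.

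Of the 28 oxygen response genes 4 passed this test by 1 probe per gene (0.137% of all genes), all lower ex vivo. They were Hilpda (-0.98 ± 0.14), Fam162a (-0.67 ± 0.11), Vegfa (-0.96 ± 0.16) and Higd1a (-0.86 ± 0.14), which helps respiration hold when oxygen is low. In vivo their differences were 0.09 ± 0.08, 0.13 ± 0.06, 0.25 ± 0.07 and 0.24 ± 0.07 (SE, n = 7 pairs). Ero1a passed on another probe (-1.46 ± 0.19, limma adjusted p = 0.0178) but not on its brightest (limma adjusted p = 0.0535). The list's median was 0.00 in vivo, with 13 of 28 lower, beside -0.51 ex vivo. Of the 24 ER genes Edem1 passed by 1 probe per gene (-0.63 ± 0.10), though not on its other probe (limma adjusted p = 0.214). Derl1 passed only on a probe other than its brightest (-0.87 ± 0.15, limma adjusted p = 0.0493). The ER list's median was -0.05 in vivo. Respiratory genes had medians of 0.19 in vivo and 0.20 ex vivo. The differences between list medians were not tested.

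Lyve1 had the smallest p here too, with a stretch effect of -1.97 ± 0.20 ex vivo and -0.28 ± 0.06 in vivo, a difference of -1.70 ± 0.19 (limma adjusted p = 0.0140). It was lower in 7 of 7 in vivo pairs as well. Tmcc3 differed by -0.81 ± 0.10 between settings, F13a1 by -0.71 ± 0.10 and Fdx1, a mitochondrial electron carrier, by -0.60 ± 0.10. In the other direction were the taurine transporter gene Slc6a6 (0.61 ± 0.10), the vessel receptor gene Adgra2 (0.99 ± 0.17), the interferon-induced membrane protein gene Ifitm1 (1.01 ± 0.17), Pspc1 (0.65 ± 0.11) and Chl1 (1.004 ± 0.17). Ifitm1 was higher in 4 of 4 pairs ex vivo (0.67 ± 0.17) and lower in 7 of 7 pairs in vivo (-0.34 ± 0.07). Slc6a6 differed by 0.08 ± 0.17 and 0.10 ± 0.09 ex vivo on its dimmer probes. Without ex vivo pair 3 none of these 9 genes passed.

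**Figure D5:**
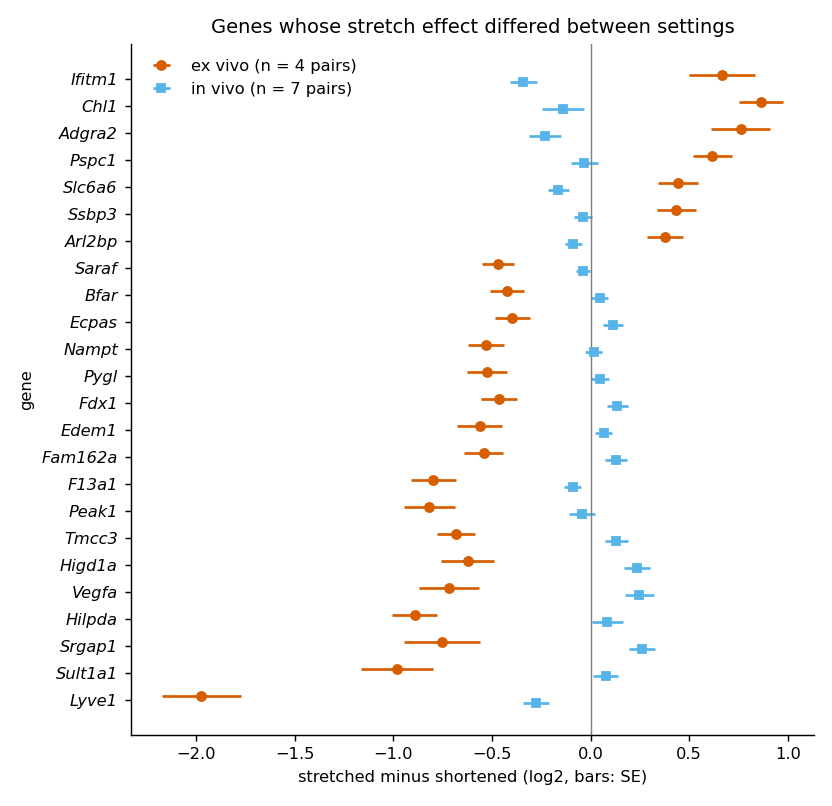
Stretched minus shortened difference (log2) ex vivo (circles, n = 4 pairs) and in vivo (squares, n = 7 pairs) with SE bars, for the 24 genes whose stretch effect differed between the settings. The 17 lower genes lay between -0.40 and -1.97 ex vivo, and the 7 higher genes had in vivo differences below 0.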

How the data were processed

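The deposited table held log2 values of 22690 probes for each sample, which the authors made with RMA and the affy package, per the submitters' processing notes, where no version is given. RMA corrects background, normalizes quantiles and summarises probe sets. Whether in vivo and ex vivo arrays were normalized together is not given in the sources used here, and their medians differed (7.28 to 7.41 against 6.85 to 6.90). The values ran from 1.89 to 14.4, and 64 control probes were left out.

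Of 22626 tested probes 20380 had 1 gene symbol in the platform annotation, 691 several and 1555 none. Where a gene had several, the brightest on average across the 22 samples stood for it. Differences were tested in limma 3.58.1 (R 4.3.3) with the animal as a block, eBayes with a mean-variance trend and Benjamini-Hochberg adjustment over all probes. The fit was tested on simulated data. The 37 gene lists and the named genes (per list the 2 to 4 smallest p, the 10 smallest p with 4 of 4 pairs alike in each direction, 5 in each direction for the difference between settings, and the 3 widest spreads in the sarcomere and oxygen response lists, beside 8 fixed genes) were chosen with earlier results of these data known. Further genes named in a list were chosen after their values were seen. Lists had no test. Of 864 listed genes 782 were measured.

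Pieces were paired by animal from the study's design. Deviations from the group means correlated with r of 0.109 to 0.284 within a pair, highest with the own number for 2 of 4. Promoters came from RefSeq tables (250 bases before to 50 after the start). Alternatives covered normalization, filters, the variance model, the samples in the fit, muscle content as a covariate and each pair left out.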

Additional observations from a re-analysis of the deposited data

Results flagged for a closer look

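Samples that stood far from the rest of their group of 4 were looked for in 142 groups of values, and 10 were found. Chance alone gives about 1 in 20 groups. Stretched sample 1 had a Gapdh 3' minus 5' difference of 0.912 (others 0.0560 to 0.187) and an Actb difference of 1.32 (others 0.495 to 0.601). Stretched sample 3 had a cell cycle list mean of 5.22 (others 5.32 to 5.34). Shortened sample 3 had a clock mean of 7.85 (others 7.59 to 7.63) and a neutrophil mean of 6.495 (others 6.07 to 6.13). Shortened sample 4 had a sarcomere mean of 5.47 (others 5.06 to 5.13). Shortened sample 2 had a keratinocyte mean of 4.71 (others 4.58 to 4.60). Stretched sample 4 had a myogenic mean of 6.46 (others 5.60 to 5.75), a Myod1 signal of 8.09 (others 4.83 to 5.36) and an Ifitm1 signal of 9.52 (others 9.998 to 10.08).

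By the limma test of the difference itself, the stretch effect was lower ex vivo than in vivo for 17 genes and higher for 7. The 10 genes given here were chosen by rule from these, so their number was set in advance. Vegfa, Fam162a, Edem1 and Peak1 passed as well. The probes that passed numbered 40 with all pairs. They numbered 0 without ex vivo pair 3, 3 without pair 2, 663 without pair 1 and 331 without pair 4. Ex vivo minus in vivo, the stretch effect was -1.70 for Lyve1, -0.98 for Hilpda, -0.81 for Tmcc3, -0.71 for F13a1 and -0.60 for Fdx1. It was 0.61 for Slc6a6, 0.65 for Pspc1, 0.99 for Adgra2, 1.004 for Chl1 and 1.01 for Ifitm1.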

How the results depend on the processing

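No probe was called ex vivo under any alternative except the fit over all 22 samples (661 called, and 4108 at an unadjusted p under 0.05). The unadjusted count was 1177 without pairs 3 and 4, 1549 with 1 probe per gene, 958 to 3484 with each pair left out, and 2173 without the animal block. The difference between settings was called for 98 probes among brighter ones (60 lower, 38 higher), 4 without the trend (4 lower, 0 higher), 5 after quantile normalization (5 and 0), 3 without the replicate block (3 and 0, with 1434 at an unadjusted p under 0.05), 344 at an adjusted p under 0.10 (178 and 166) and 0 to 663 with each pair left out (0 to 343 lower, 0 to 320 higher). Calls higher ex vivo were 4 after centring and 18 with the muscle covariate. Without pairs 3 and 4, 12 sarcomere and 10 calcium and energy genes were higher, and with the covariate 15 and 13. The covariate is the mean of these same genes, so a near-even split under it was set in advance. Acta1 reversed to -0.95 without pairs 3 and 4 and to -0.62 with the covariate. Acta2 ranged from -0.88 to 0.13 with each pair left out, above 0 without pair 2 (0.07) and pair 3, and the Actb 3' minus 5' difference from -0.276 to 0.0601, above 0 without pair 3. The cause was not tested beyond the pairs left out.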
